A study of Rattus norvegicus with 8 samples.

Results

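The 10 genes described here encode regulators of the nephron progenitor: the phosphatase and coactivator Eya1, the homeobox factors Six2, Lhx1 and Meox1, the paired box factors Pax2 and Pax8, the zinc finger factors Sall1 and Osr1, and the CBP/p300 interacting coregulators Cited1 and Cited2. They were chosen by name, as every probe set paired with exactly 1 of these symbols, and all 10 were found among the 17245 genes with such a probe set, with 1 probe set each. Kidneys from 8 rats aged 4 weeks were profiled whole on Rat Gene 1.1 ST arrays, 1 array per kidney sample. All animals belong to HSRA, a rat model bred from heterogeneous stock in which part of the offspring lack a kidney from birth. HSRA-S animals (n = 4) had a solitary kidney and HSRA-C animals (n = 4) had both and served as the control, so the controls share the strain's background and are not an unaffected strain. The sources used here give no sex, litter or, for the controls, side of the kidney.

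In the embryo, these factors act in the mesenchyme that forms nephrons and in the ureteric bud that grows into it. Osr1 marks the earliest intermediate mesoderm, Eya1, Six2, Sall1 and Cited1 mark the cap of progenitors around each bud tip, Pax2 and Lhx1 act in both bud and mesenchyme, and Pax2 and Pax8 together are needed for the nephric lineage to form. Variants of EYA1, SALL1 and PAX2 are known causes of malformed or missing kidneys in humans. Nephron formation in the rat ends soon after birth, so the kidneys measured here are past the stage at which the progenitor pool exists, while Pax2, Pax8 and Cited2 are also known from mature tubules.

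No member passed the test between the groups. With limma and Benjamini-Hochberg adjustment over the 13796 genes tested, 0 of the 10 members had an adjusted p under 0.05, as had 0% of all genes. At an unadjusted p under 0.05, 3 members (Eya1, Pax2 and Cited2) were lower in HSRA-S, against 4.69% of all genes, and 2 (Lhx1 and Six2) were higher, against 7.36%. Whatever the p, 7 of 10 were lower, against 44.5% of all genes, and their median log2 difference was -0.07, against 0.02 over all genes tested. The members were picked with earlier results of these data known, so these counts are descriptions. Levels below are log2 of the deposited RMA intensity (RMA is the background correction, normalization and probe summary used for these arrays), a difference is the HSRA-S mean minus the HSRA-C mean, and in such whole-organ RNA fewer cells of a type and less RNA per cell cannot be told apart.

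HSRA-C replicates 3 and 4 stood apart from the other 6 samples. On the first principal component of all genes tested, with 35.9% of the variance, they scored 16.7 and 19.5 and the others between -12.8 and -1.20. The mean log2 level of 8 inner medulla genes was 8.31 and 8.39 in these samples and 6.39 to 7.60 in the others, lowest in HSRA-S replicate 4. Slc14a2, which carries urea across collecting duct cells of the inner medulla, was at 8.86 and 9.0 in them and at 4.44 in HSRA-S replicate 4. Values that move by over 1.5 times when these samples are left out are given both ways. Markers of the labelled tissue were present on every array: the mean log2 level of 17 proximal tubule genes lay between 10.2 and 10.8, and that of 7 podocyte genes between 7.22 and 7.57.

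**Figure D1:**
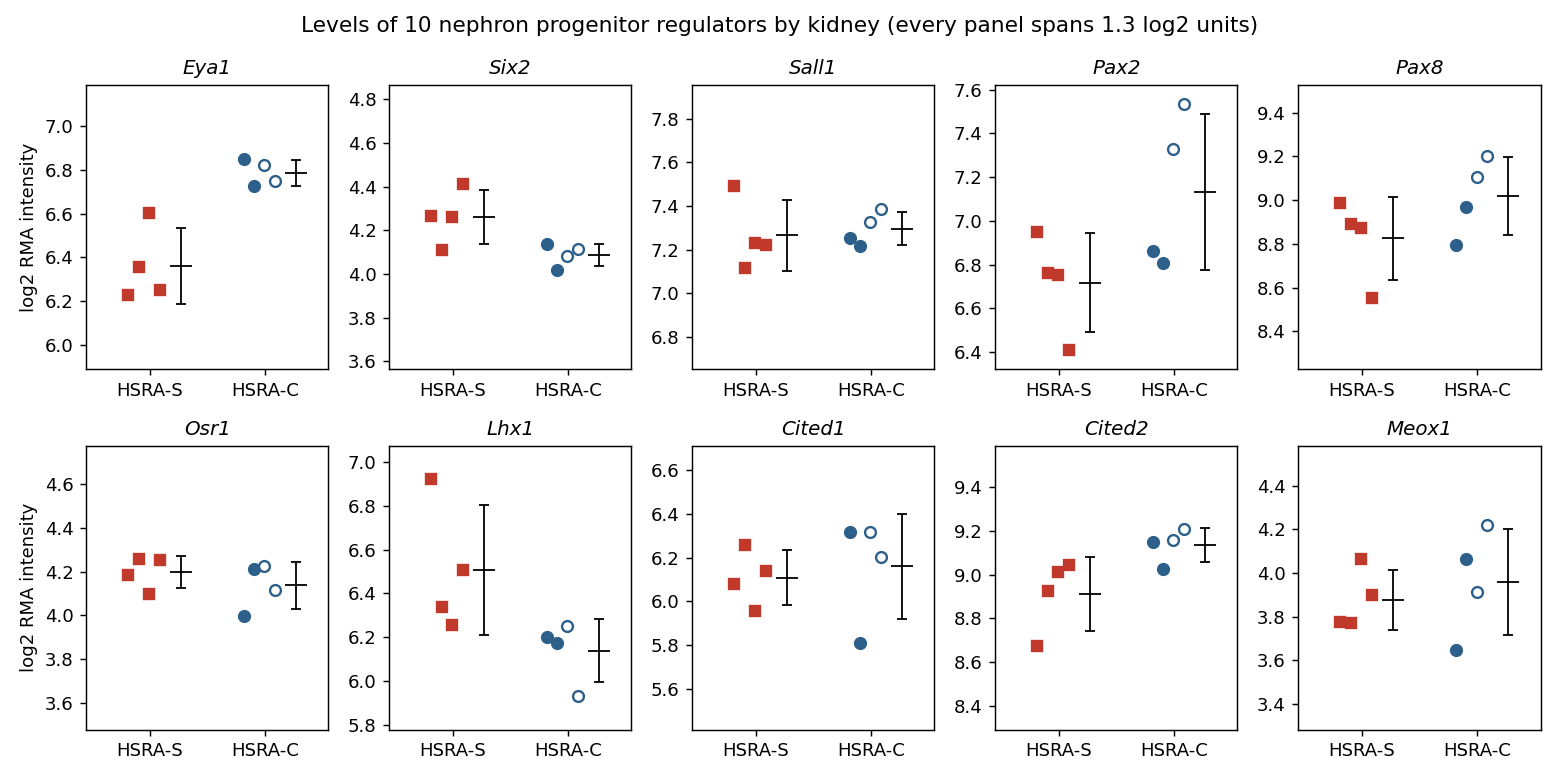
Log2 RMA intensity (y axis) of the 10 regulators in each kidney, with HSRA-S as red squares, HSRA-C as blue circles and HSRA-C replicates 3 and 4 as open circles; black bars are the group mean ± SD (n = 4). The groups do not overlap for Eya1 and Lhx1, and the open circles lie above every other kidney for Pax2 and Pax8.

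Eya1, a partner of Six2 that is needed for the kidney to begin to form, was the member with the clearest difference. Its log2 levels in HSRA-S were 6.23, 6.36, 6.61 and 6.25 in replicates 1 to 4, and in HSRA-C they were 6.85, 6.73, 6.82 and 6.75. Every solitary kidney was below every control, and the spread within the controls was small (SD 0.059, against 0.17 in HSRA-S, n = 4 each). On the linear scale the mean intensity of the solitary kidneys was 82.6 and that of the controls 111. The log2 difference was -0.43 (SE 0.087, 95% interval -0.62 to -0.23), a 1.34-fold lower level, with an adjusted p of 0.331 in limma. An exact two-sided permutation of the 8 values gave p = 0.0286, the smallest that 4 against 4 can give. Without HSRA-C replicates 3 and 4 the difference was -0.43 again (SE 0.12), and with the tubule covariate described for Pax2 it was -0.38 (SE 0.11). It stayed negative in all 20 alternatives, between -0.51 and -0.36, with adjusted p-values of 0.105 to 0.977. Most of these could not turn the sign. Leaving out samples cannot do so where the groups do not overlap. Settings of the filter, the probe sets, the variance estimate or the replicate block left the difference as it was.

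The pattern of Eya1 across the 8 kidneys was nearest to those of Kiaa0825, Prelid3a, Pard6g and Dcn among the 13795 other genes. Likeness was the root mean square difference of log2 levels centred on each gene's mean, which was 0.0685, 0.0702, 0.0737 and 0.0943 for these genes, where Eya1 itself varied by 0.241 around its mean. Pard6g, a cell polarity adaptor, and Dcn, a matrix proteoglycan, were also below every control in all 4 solitary kidneys, as was Kiaa0825, whereas the groups overlapped for Prelid3a. The likeness includes the difference between the groups, and such nearest genes exist for any gene among so many.

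Six2, which holds progenitors in their undifferentiated state, was dim. Its log2 levels were 4.26, 4.11, 4.26 and 4.41 in HSRA-S replicates 1 to 4 and 4.14, 4.02, 4.08 and 4.11 in HSRA-C. HSRA-S replicate 2 was within the control range and the other 3 solitary kidneys were above it. The log2 difference was 0.17 (SE 0.072), with an adjusted p of 0.388 in limma and p = 0.0857 in the exact permutation test. It was 0.18 without HSRA-C replicates 3 and 4 and 0.11 with the covariate. A gauge of dim signal is given by 61 olfactory receptor genes, whose log2 means had a median of 2.83 and a 95th percentile of 4.60, although the brightness of a probe set depends on its probes as well as on RNA. The means of Six2, Osr1 and Meox1 over all arrays (4.17, 4.17 and 3.92) all lay under that 95th percentile, and those of the other 7 members lay above all 61 receptors. Whether Six2 RNA was present at all can therefore not be told from its level.

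Sall1, a zinc finger factor that keeps progenitors from differentiating early, had groups that overlapped widely. Its levels ran from 7.12 to 7.49 in HSRA-S and from 7.22 to 7.39 in HSRA-C, so the control range lay inside that of the solitary kidneys. The log2 difference was -0.03 with a 95% interval of -0.22 to 0.16 (adjusted p = 0.916 in limma). Its sign turned to 0.03 without HSRA-C replicates 3 and 4.

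Pax2, a paired box factor of the bud and of early nephrons that stays on in collecting ducts, had nearly the same mean difference as Eya1 but a very different spread. Its log2 levels were 6.95, 6.76, 6.75 and 6.41 in HSRA-S replicates 1 to 4 and 6.86, 6.81, 7.33 and 7.54 in HSRA-C. HSRA-C replicates 1 and 2 lay inside the range of the solitary kidneys, and only replicates 3 and 4 were above it. The log2 difference was -0.42 (SE 0.17, 95% interval -0.80 to -0.03), with an adjusted p of 0.388 in limma and p = 0.143 in the exact permutation test. Without HSRA-C replicates 3 and 4 it was -0.12 (SE 0.14), and with the mean of the proximal tubule genes minus that of the collecting duct genes as a covariate it was -0.05 (SE 0.12). The SD of Pax2 within the groups was 0.299, against a median of 0.108 for the 200 genes of nearest mean level, and 4% of those genes varied more.

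Pax8, its close relative in the nephric lineage and a factor of tubule epithelium, followed the same order at the ends. Its log2 levels were 8.99, 8.89, 8.87 and 8.55 in HSRA-S and 8.79, 8.97, 9.11 and 9.20 in HSRA-C. For both Pax genes the highest sample was HSRA-C replicate 4, then replicate 3, then HSRA-S replicate 1, and the lowest was HSRA-S replicate 4. The inner medulla level of the same kidneys was likewise highest in HSRA-C replicates 4 (8.39) and 3 (8.31) and lowest in HSRA-S replicate 4 (6.39). So were the marker means of collecting duct, stroma, smooth muscle and pericyte, and endothelium. The collecting duct and inner medulla lists share the gene Aqp4. The collecting duct mean of HSRA-C replicate 3 (8.357) was barely above that of HSRA-S replicate 1 (8.352). The proximal tubule mean was instead highest in HSRA-S replicate 4. Which of these, if any, the Pax genes follow was not tested. The log2 difference of Pax8 was -0.19 (SE 0.11, adjusted p = 0.516 in limma), -0.06 without HSRA-C replicates 3 and 4, and 0.05, of the opposite sign, with the covariate. It was -0.10 without HSRA-S replicate 4 alone and -0.27 without HSRA-C replicate 1, where the unadjusted p was under 0.05 and the adjusted p 0.327 in limma. The covariate differs between the groups itself, from 2.18 to 2.78 in HSRA-S and from 1.77 to 2.24 in HSRA-C, so a difference between groups that follows it cannot be told apart from it.

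**Figure D2:**
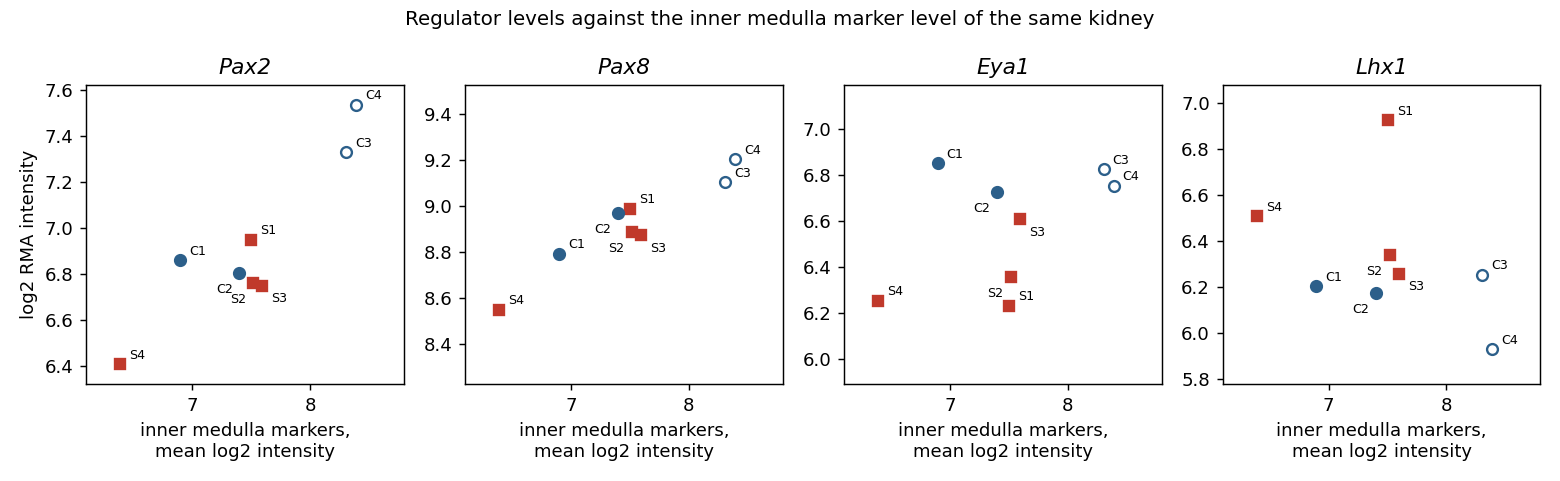
Log2 RMA intensity of 4 regulators (y axis) against the mean log2 level of 8 inner medulla genes in the same kidney (x axis); red squares are HSRA-S, blue circles HSRA-C, labels give group and replicate. For Pax2 and Pax8 the lowest and the 2 highest kidneys are the same on both axes, ends that the collecting duct, stromal and endothelial marker means share. For Eya1 the groups do not overlap, but no HSRA-S kidney (6.39 to 7.60) reaches the medulla level of HSRA-C replicates 3 and 4 (8.31 and 8.39).

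Osr1, a marker of the earliest kidney mesoderm, was dim and did not separate the groups. It ran from 4.10 to 4.26 in HSRA-S and from 4.0 to 4.23 in HSRA-C, with a log2 difference of 0.06 and a 95% interval of -0.10 to 0.22 (adjusted p = 0.760 in limma). With single kidneys left out it ran from 0.015 (without HSRA-C replicate 1) to 0.095 (without HSRA-S replicate 3), and without HSRA-C replicates 3 and 4 it was 0.09.

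Lhx1, a LIM homeobox factor of the nephric duct and of new nephrons, was the one member above every control in all 4 solitary kidneys. Its log2 levels were 6.92, 6.34, 6.26 and 6.51 in HSRA-S replicates 1 to 4 and 6.20, 6.17, 6.25 and 5.93 in HSRA-C. The groups were apart by very little, since HSRA-S replicate 3 (6.257) and HSRA-C replicate 3 (6.252) almost met, and after quantile normalization of the table they overlapped. The log2 difference was 0.37 (SE 0.14, 95% interval 0.06 to 0.67), a 1.29-fold higher level, with an adjusted p of 0.361 in limma and p = 0.0286 in the exact permutation test. HSRA-S replicate 1 carried much of it, and without that kidney the difference was 0.23. It was 0.32 without HSRA-C replicates 3 and 4 and 0.34 with the covariate. Counted with Eya1, the groups did not overlap for 1 member on the lower side, against 2.17% of all genes, and for 1 on the higher side, against 4.12%. Without HSRA-C replicates 3 and 4 the members gave the same counts, beside 759 lower and 1162 higher of the 13796 genes tested.

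The nearest patterns to that of Lhx1 were those of Hormad1, a meiotic chromosome axis protein, Senp17, Slc52a2, a riboflavin transporter, and Setd3, an actin histidine methyltransferase. Their root mean square differences from it were 0.0617, 0.0892, 0.0972 and 0.114 over the 8 arrays, with Lhx1 at 0.273 around its own mean. All 4 were highest in HSRA-S replicate 1, as Lhx1 was, with Hormad1 at 4.97 there and at 4.09 to 4.49 in the other kidneys. The pick itself favours such a shared peak, since it compares levels with those of Lhx1 across all arrays.

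Cited1, a coregulator of the progenitor cap in the embryo, did not differ beyond its spread. It ran from 5.95 to 6.26 in HSRA-S, and in HSRA-C it was 6.32, 5.81, 6.32 and 6.20, so that HSRA-C replicate 2 was the lowest of all kidneys. Its log2 difference was -0.05 (95% interval -0.31 to 0.21, adjusted p = 0.889 in limma) and turned to 0.04 without HSRA-C replicates 3 and 4. Single kidneys moved it widely, from -0.17 without HSRA-C replicate 2 to -0.0013 without HSRA-C replicate 1, -0.0017 without HSRA-C replicate 3 and -0.0023 without HSRA-S replicate 3, and it was -0.10 without HSRA-S replicate 2.

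Cited2, a coregulator made in many cell types that competes with HIF-1 for CBP/p300, was lower in most solitary kidneys. Its log2 levels were 8.67, 8.92, 9.01 and 9.04 in HSRA-S replicates 1 to 4 and 9.15, 9.03, 9.16 and 9.21 in HSRA-C. The overlap was slight: HSRA-S replicate 4 was above HSRA-C replicate 2 and below the other 3 controls. The log2 difference was -0.22 (SE 0.088, 95% interval -0.42 to -0.03), a 1.17-fold lower level, with an adjusted p of 0.377 in limma and p = 0.0571 in the exact permutation test. It was -0.14 without HSRA-S replicate 1, -0.18 without HSRA-C replicates 3 and 4 and -0.27 with the covariate.

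Meox1, a homeobox factor of mesoderm that also marks some progenitors and stromal cells, was the dimmest member. Its levels ran from 3.77 to 4.06 in HSRA-S and from 3.65 to 4.22 in HSRA-C, near the level of 3.63 under which genes were left out. Its log2 difference was -0.08 (95% interval -0.35 to 0.18, adjusted p = 0.820 in limma), and it was 0.02 without HSRA-C replicates 3 and 4.

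**Figure D3:**
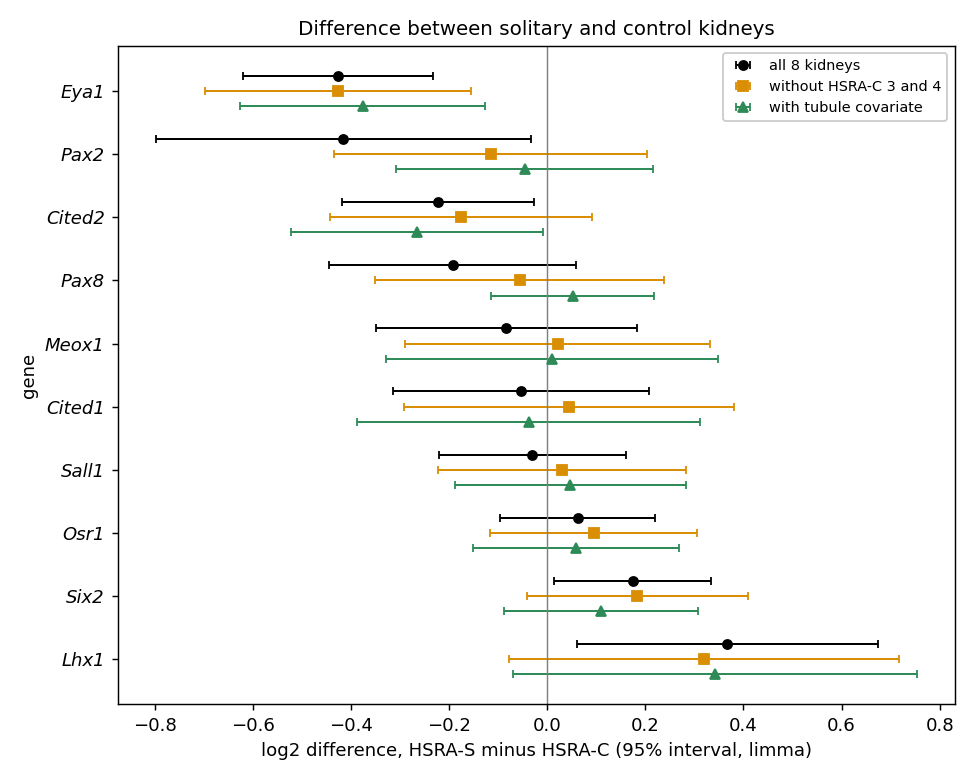
Log2 difference between HSRA-S and HSRA-C (x axis) with its 95% limma interval for each regulator, from all 8 kidneys (black circles), without HSRA-C replicates 3 and 4 (orange squares) and with the proximal tubule minus collecting duct covariate (green triangles). Eya1 stays between -0.43 and -0.38, while Pax2 moves from -0.42 to -0.12 and -0.05.

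Without HSRA-C replicates 3 and 4, Eya1 was the 1 member left at an unadjusted p under 0.05 on the lower side, against 2.17% of all genes, and 0 were left on the higher side, against 2.68%. The share of members below 0 was then 4 of 10, against 44.8% of all genes. With 6 kidneys in place of 8 the test is also weaker, so a difference of the same size gives a larger p.

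The start regions of Lhx1 and Cited2 are shown because their values lay on opposite sides of 0 at an unadjusted p under 0.05 in limma, without passing adjustment, and because their RefSeq window begins at the outer end of the gene. RefSeq's GRCr8 table held a window for 7 of the 10 members. Each sequence is the 250 bases before the start, read 5′ to 3′ on the gene's strand, at chr10:69901077-69901326 (minus strand) for Lhx1 and chr1:14132053-14132302 (plus strand) for Cited2, and capitals mark GGGCGG, the GC box letters, on either strand.
Lhx1: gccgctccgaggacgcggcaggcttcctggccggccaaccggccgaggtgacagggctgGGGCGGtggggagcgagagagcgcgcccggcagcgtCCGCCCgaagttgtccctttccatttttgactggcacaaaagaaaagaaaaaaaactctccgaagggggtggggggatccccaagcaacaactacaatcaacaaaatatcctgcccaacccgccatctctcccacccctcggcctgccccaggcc
Cited2: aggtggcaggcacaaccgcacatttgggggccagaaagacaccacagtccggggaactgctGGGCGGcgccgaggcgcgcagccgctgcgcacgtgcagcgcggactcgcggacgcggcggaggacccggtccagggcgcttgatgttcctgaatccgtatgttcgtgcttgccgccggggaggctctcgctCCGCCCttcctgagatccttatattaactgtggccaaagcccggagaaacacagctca
Both windows were rich in G and C, at 63.2% for Lhx1 and 65.2% for Cited2, against a median of 51.2% over 33469 such windows, and each held GGGCGG at 2 places. That motif was in 6 of the 7 member windows (all but that of Osr1) and in 30.5% of all windows. The 6 windows had between 60.8% (Pax8) and 86% (Six2) G and C, and that of Osr1 had 50%. The motif holds only G and C, and what part base composition has in its count was not tested. CCAAT was in 1 member window (Pax8) and in 34.02% of all, and TATAAA in 1 (Cited1) and in 12.9% of all. GCGTGAC, core letters of a paired domain site, was in 0 of the 7 windows and in 1.74% of all, with both strands searched and no overlap of different motifs in these windows.

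The paralogues of the members, many of them dim, had a median difference near 0. A probe set of their own was found for 26 of those listed, and 21 passed the filter on dim genes. Of these, 6 were lower in HSRA-S, against 44.5% of all genes, and 15 higher, with a median log2 difference of 0.01. None passed adjustment (0 of 21), and 1, Six5, was lower at an unadjusted p under 0.05, beside 4.69% of all genes. Without HSRA-C replicates 3 and 4 the median was 0.03, with 9 lower, against 44.8% of all genes, and 12 higher. At an unadjusted p under 0.05, 1 (Six5) was then lower and 2 (Eya4 and Pax9) were higher, beside 2.17% and 2.68% of all genes. Six5, a homeobox factor related to Six2, was at -0.21 (SE 0.075, adjusted p = 0.358 in limma), with all solitary kidneys (5.29 to 5.47) below all controls (5.48 to 5.73). Among the Eya relatives, Eya2 was at 0.05, Eya3 at 0.01 and Eya4 at 0.08 (SE 0.19). Without HSRA-C replicates 3 and 4 they were at -0.07, 0.02 and 0.38 (SE 0.16 for Eya4). Eya1 was at -0.43 both ways. Six3 was at 0.08 and Six4 at 0.02 (0.12 without those samples), Sall3 at -0.08 and Sall2 at -0.05 (0.03 without them). Among the Pax relatives, Pax9 was at 0.10 (0.27 without those samples), Pax7 at 0.05 and Pax3 at 0.04, and Pax1 was left out as dim (3.63 in HSRA-S and 3.47 in HSRA-C) although its groups did not overlap. Lhx4 was at -0.16 and at -0.29 without HSRA-C replicates 3 and 4, Lhx9 at -0.12 and Cited4 at 0.12. The means of Eya4, Sall2, Pax3, Pax7, Pax9, Lhx4, Lhx9 and Cited4 over all arrays (3.64 to 4.54) lay under the 95th percentile of the olfactory receptors (4.60). A difference near 0 in such dim genes does not show that their RNA was unchanged.

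Genes that act with the members in the progenitor niche were more often lower than higher in HSRA-S. Of 55 tested, 44 were lower, against 44.5% of all genes, with a median log2 difference of -0.15, against 0.02 over all genes tested. None passed adjustment (0 of 55). At an unadjusted p under 0.05, 13 were lower and 1 higher, beside 4.69% and 7.36% of all genes. Without HSRA-C replicates 3 and 4 the median was -0.05, 38 of 55 were lower, against 44.8% of all genes, and 3 were lower and 0 higher at an unadjusted p under 0.05, beside 2.17% and 2.68% of all genes. The mean of their transcription regulators was highest in those same samples, at 6.63 and 6.68 against 6.38 to 6.52 elsewhere, and so was that of 10 stromal genes, at 7.87 and 7.90 against 7.20 to 7.58. What part the makeup of those samples has in the lower levels was not tested.

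Among 16 ligands and secreted regulators, 12 were lower, against 44.5% of all genes, and 4 of them were at an unadjusted p under 0.05, against 4.69%. Without HSRA-C replicates 3 and 4, Bmp4 alone was lower at that level, beside 2.17% of all genes. Bmp4 was at -0.18 with all kidneys and at -0.25 without those samples. Spry1, an inhibitor of receptor tyrosine kinase signalling that restrains the response to Gdnf, was at -0.40 (SE 0.13) and at -0.20 without HSRA-C replicates 3 and 4. Jag1, a Notch ligand, was at -0.28 and at -0.10 without them, and Npnt, the ligand of integrin alpha 8, at -0.23 and -0.15. Gdnf itself, which Eya1 and Pax2 are known to be needed for, was at -0.03 (SE 0.087) and at -0.08 without those samples. Wnt4, which turns progenitors into epithelium, was at -0.17 (SE 0.10) and at -0.03 without those samples.

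Of 11 receptors 8 were lower, against 44.5% of all genes. At an unadjusted p under 0.05, 2 were lower and 1 was higher, against 4.69% and 7.36%. Without HSRA-C replicates 3 and 4, Robo2 alone was lower at that level and 0 were higher, beside 2.17% and 2.68% of all genes. Ncam1, a cell adhesion molecule of the mesenchyme, had the widest difference at -0.63 (SE 0.18), which was -0.34 without HSRA-C replicates 3 and 4. Robo2, the Slit receptor that limits where buds form, was below every control in all solitary kidneys (6.66 to 6.84 against 6.86 to 7.07), at -0.23 and at -0.21 without those samples. Gfra1, the Gdnf coreceptor, was higher at 0.27 (SE 0.11) and at 0.11 without them. Ret, its signalling partner, was at 0.02 (SE 0.093) and at -0.01 without them. Ret was dim, with a mean of 3.74 in HSRA-S, under the 95th percentile of the olfactory receptors (4.60), so its presence cannot be told from its level.

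Of 28 other transcription regulators 24 were lower, against 44.5% of all genes, and 7 were lower at an unadjusted p under 0.05, against 4.69%. Without HSRA-C replicates 3 and 4, Irx3 alone was lower at that level, beside 2.17% of all genes. Tcf21, a factor of podocytes and stroma, was at -0.44 (SE 0.12) and at -0.25 without HSRA-C replicates 3 and 4. Irx3, an Iroquois factor of nephron patterning, was at -0.31 and -0.24, and Hoxa10, a homeobox factor of body position, at -0.28 and -0.21. The groups did not overlap for Irx3 and Hoxa10. Wt1, needed for the mesenchyme to survive and later for podocytes, was at -0.18 (SE 0.13). Over all 55 genes the groups did not overlap for 3 on the lower side (Robo2, Irx3 and Hoxa10), beside 2.17% of all genes. On the higher side there were 0, beside 4.12%. Without HSRA-C replicates 3 and 4 the groups did not overlap for 5 of the 55 on the lower side and 0 on the higher. Of all 13796 genes tested, 759 and 1162 then did not overlap on these sides. The adjusted p-values of Robo2, Irx3, Hoxa10, Ncam1 and Tcf21 with all kidneys were 0.331 in limma.

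**Figure D4:**
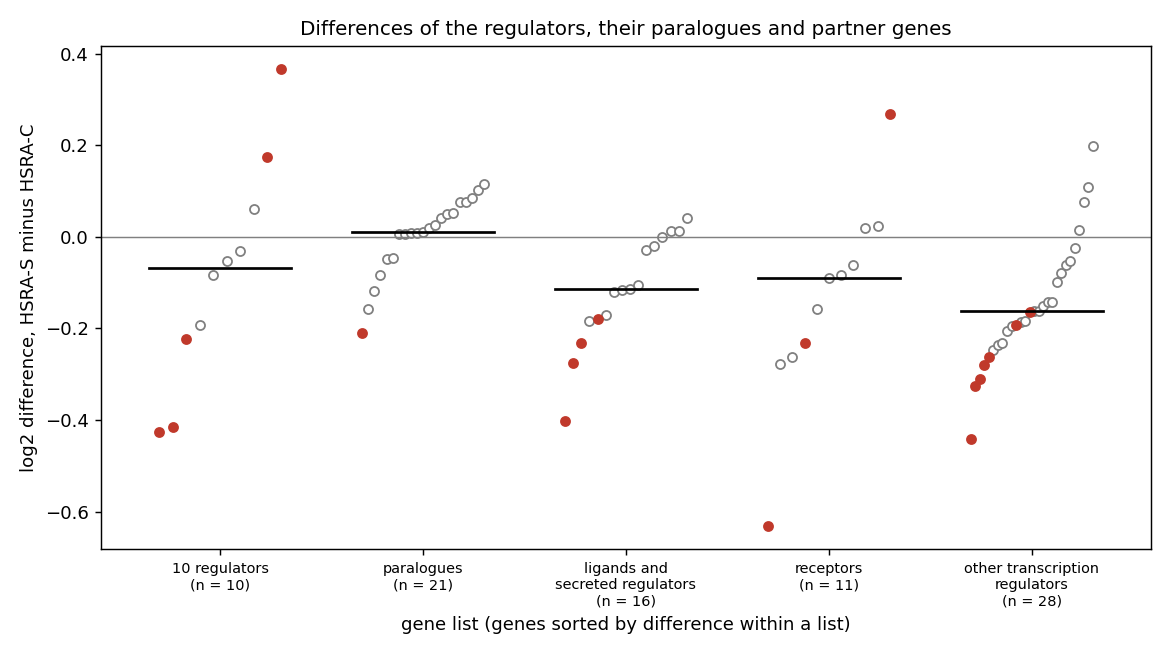
Log2 difference between HSRA-S and HSRA-C (y axis) of each gene tested, in 5 lists (x axis: the 10 regulators, their 21 paralogues, and 16 ligands, 11 receptors and 28 other regulators of the niche); filled red points have an unadjusted limma p under 0.05 and black lines are list medians. The 10 regulators spread from -0.43 to 0.37, the median of the paralogues lies near 0, and the 3 niche lists have medians between -0.16 and -0.09.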

How the data were processed

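RNA of 8 whole kidneys (4 HSRA-S, 4 HSRA-C, grouped by title) was hybridised to 1 array each. The authors deposited RMA intensities on a linear scale, with RMA named in the submitters' processing notes; the sources used here give neither its version nor a genome build. RMA compresses dim values, so their differences tend to be understated. Array medians ran from 30.8 to 32.3. Of 29214 probe sets, 18644 had exactly 1 symbol in the platform annotation and 18460 of these matched RefSeq GRCr8 by gene ID. Log2 was taken, the brightest of a gene's probe sets used, the dimmest 20% of 17245 genes left out (13796 tested), and limma 3.58.1 (R 4.3.3; lmFit, eBayes, group as the only term) applied with Benjamini-Hochberg adjustment over all tested genes at 0.05. All 10 members passed the filter. P-values measure the spread between these animals, and the number of arrays limits the precision.

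The members, the lists and the alternatives were chosen with earlier results of these data known. Genes named are all members, the 3 of smallest p per role in the lists of paralogues and partners, any without overlap between groups, and the 4 nearest patterns to Eya1 and to the member of next smallest p. Gdnf, Wnt4, Bmp4, Ret and Wt1 are named outside this rule, with their values already seen. On simulated data for this comparison with 200 of 13796 genes changed, limma called 81.3% of genes changed 1.5-fold and 96.4% of those changed 2-fold. The simulated noise was drawn for each gene on its own, from its spread within groups. It held no shift shared by many genes, such as that of HSRA-C replicates 3 and 4, so these shares need not hold for the real arrays. Same-numbered samples did not deviate together (correlations -0.07, 0.07, 0.13 and -0.11), so the numbers were not taken as pairs. No 2 arrays were copies, with at most 0.0411% of values identical.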

Additional observations from a re-analysis of the deposited data

How the results depend on the processing

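The number of members at an adjusted p under 0.05 was 0 in every alternative. The 5 members at an unadjusted p under 0.05 became 1 without HSRA-C replicates 3 and 4 and 2 with the proximal tubule minus collecting duct covariate, and ranged from 1 (without HSRA-C replicate 4) to 5 when single samples were left out. The share of all genes at that level was 12.1% with all kidneys, 4.85% without HSRA-C replicates 3 and 4, 8.31% with the covariate and 7.37% without HSRA-C replicate 4; the causes were not tested, beyond fewer samples. The 2 members without overlap became 1 after quantile normalization, as Lhx1 overlapped. With the replicate number as a block, 4 members were at an unadjusted p under 0.05, against 11.5% of all genes. Pax2, at an adjusted p of 0.454 in limma, was not among these members. The samples of a block share only a number. The difference of Sall1 changed sign to 0.031 without HSRA-C replicates 3 and 4, to 0.047 with the covariate and to 0.020 without HSRA-S replicate 2, with a range of -0.107 to 0.020 over single samples left out. That of Meox1 became 0.021 and 0.011, and ranged from -0.187 to 0.0026 (without HSRA-C replicate 4). Cited1 became 0.045 without HSRA-C replicates 3 and 4 and Pax8 0.052 with the covariate. The partner genes' median became -0.047 without HSRA-C replicates 3 and 4. Eya1, Pax2, Cited2, Lhx1, Six2 and Osr1 kept their sign in every alternative that tested them. Many alternatives could not turn a sign, since settings of the filter, the variance estimate or the block left each difference as it was. For Eya1 and Lhx1, whose groups do not overlap, leaving out samples could not turn it either. Six2, Osr1 and Meox1 were not tested with the dimmest 50% left out. Signal over background limits what can be said of these 3.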
